A study of Mus musculus with 6 samples.

Results

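Oxidative phosphorylation genes were described in fibrotic mouse liver as 1 set of 97 protein-coding genes, among 41388 Ensembl identifiers in the count table. The set comprised the protein-coding genes whose symbols name a numbered Nduf subunit (series a, b, c, s or v), 1 of the 4 Sdh subunits, a Uqcr protein, a Cox4 to Cox8 protein or an Atp5 protein, together with all 13 protein genes of the mitochondrial genome. Nuclear genes numbered 84 and were grouped into 7 complex I core subunits, 28 complex I accessory subunits, 4 subunits of complex II, 8 of complex III, 18 of complex IV, 16 of complex V and 3 other proteins that share the names. The mitochondrial genes comprised 7 subunits of complex I, 1 of complex III, 3 of complex IV and 2 of complex V. Because members were chosen by symbol, Ndufab1, Cyc1, Atpif1 and Usmg5 stayed outside, and 10 processed pseudogenes with matching names were left out. Of the 97 genes, 81 nuclear and all 13 mitochondrial genes passed the filter on low counts; Cox7b2, Cox8b and Cox8c did not.

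Oxidative phosphorylation takes place in the inner mitochondrial membrane. Complexes I and II pass electrons from NADH and succinate to ubiquinone, complex III passes them on to cytochrome c, complex IV reduces oxygen with them, and complex V makes ATP from the proton gradient that results. Complex II is wholly encoded in the nucleus, whereas the other complexes combine nuclear subunits with subunits encoded in mitochondrial DNA. Mitochondrial genes are transcribed as long shared precursors, which are cut into mature messengers. Hepatocytes are rich in mitochondria and depend on this pathway for urea synthesis and gluconeogenesis.

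All samples were liver tissue of BALB/c mice in which fibrosis had been induced with the liver toxin carbon tetrachloride (CCl4) for 5 weeks, with 3 libraries per group. The AL/NP group received nanoparticles carrying the bisphosphonate alendronate, 2 injections per week over the last 2 weeks at 4 mg/kg. Controls were labelled as untreated fibrotic livers, although the treatment protocol attached to them is worded as for the AL/NP group. The labels give no age or sex, and no healthy liver and no particle without drug were among the samples, so drug, carrier and injection cannot be told apart. The labels number the replicates without stating that each was a separate animal, so p-values measure the spread between these samples, which may be technical. Polyadenylated RNA was selected before sequencing.

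The libraries held 30554483 to 39838428 counts. Over all features, 13 of 15939 tested genes (0.0816%) passed an adjusted p of 0.05 in edgeR's quasi-likelihood test, and 2 libraries stood apart. Control replicate 3 differed from the other controls by chi-square statistics of 227 and 152 per degree of freedom over genes, compared with 37 between control replicates 1 and 2. It was the highest or lowest of the 6 libraries in 57.3% of all tested genes and in 56 of the 81 nuclear members (69.1%). Without it, 33 nuclear and 10 mitochondrial members had a log2 fold change smaller by over 1.5 times, and 8 nuclear members changed sign. The effect of control replicate 3 is given beside many of the genes described. Where no such value stands, the effect of that library is not described. AL/NP replicate 1 was the highest or lowest library in 51.8% of all tested genes and differed from its own group by chi-square statistics of 72 and 117 per degree of freedom, compared with 30.6 between AL/NP replicates 2 and 3. Leaving it out made 13 nuclear members smaller and 17 nuclear and 2 mitochondrial ones larger by over 1.5 times, and 12 nuclear members changed sign. Among members AL/NP replicate 3 weighed about as much. Without it, 15 nuclear and 2 mitochondrial members became smaller and 14 nuclear ones larger, and 6 nuclear members changed sign. AL/NP replicate 3 was the highest or lowest library in 60.5% of nuclear members, compared with 51.9% for AL/NP replicate 1. The tissue label was checked against 15 hepatocyte markers, all of which were detected, at a sum of 54612 to 63662 CPM in AL/NP livers and 65024 to 82972 CPM in controls. All CPM values, the usual library-scaled counts, carry this TMM scaling for library composition.

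Several members cannot be counted cleanly because the same letters stand elsewhere in the genome, so the stretches concerned are shown first. The nuclear genome holds annotated copies of mitochondrial genes, of which 11 met a limit of 95% identity. The following 90 bases of mt-Co2, the gene of a catalytic complex IV subunit, lie at chrM:7223-7312 in GRCm38; the copy Gm28661 has the same letters at chr1:24615266-24615355, and the copy Gm13341 at chr2:22587663-22587752 differs at 3 of the 90 positions, marked by capitals. The stretches were read from the GENCODE M21 transcripts, and both copies lie on the minus strand.
mt-Co2: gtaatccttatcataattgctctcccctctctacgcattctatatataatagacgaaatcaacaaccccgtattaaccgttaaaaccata
Gm28661: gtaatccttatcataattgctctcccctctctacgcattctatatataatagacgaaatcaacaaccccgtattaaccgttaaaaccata
Gm13341: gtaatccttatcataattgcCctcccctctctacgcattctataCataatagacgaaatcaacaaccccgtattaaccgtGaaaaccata

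Over 681 bases Gm28661 and mt-Co2 were identical, and their summed counts were 3907482 and 3904291. Such near-equal totals were also found for Gm28437 beside mt-Co3 and Gm28438 beside mt-Nd3, each with a ratio of 1.0 of copy to gene, and for Gm10222 beside mt-Nd4l with a ratio of 0.966. Gm10925 held more counts than mt-Atp6, 5295073 beside 4338061, a ratio of 1.22. For Gm28439 beside mt-Nd4 and Gm29216 beside mt-Co1 the ratios were 0.498 and 0.358, and for the remaining copies 0.0922 or less. How reads with several matches were counted is not given in the sources used here. All mitochondrial values below are therefore the deposited counts of the mitochondrial row alone, and the counts of these copies are added where stated. No listed copy had mt-Nd1, mt-Nd6, mt-Cytb or mt-Atp8 as its closest gene. Only annotated transcripts were searched, so copies without one are not listed. The genes on either side of mt-Atp8, mt-Atp6 and mt-Co2, have neighbouring copies on chromosome 1, Gm10925 and Gm28661. Gm10925 ends at 24614651 and Gm28661 starts at 24614885, and the stretch between them was not searched for mt-Atp8.

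Mitochondrial genes also share letters among themselves, including mt-Atp8 and mt-Nd5, the 2 with the smallest p-values. For mt-Atp8, the overlapping mt-Atp6 held 519 counts per 100 counts of mt-Atp8. For mt-Nd5 the shared stretch is short, and mt-Nd6 held only 3.12 counts per 100 counts of mt-Nd5. Conversely, mt-Nd5 held 3209 counts per 100 counts of mt-Nd6. Capitals below mark the 43 bases that mt-Atp8 and mt-Atp6 share within chrM:7907-7989, read in different frames on the same strand, and the 14 bases that mt-Nd5 and mt-Nd6 share on opposite strands within chrM:13532-13585.
mt-Atp8 and mt-Atp6: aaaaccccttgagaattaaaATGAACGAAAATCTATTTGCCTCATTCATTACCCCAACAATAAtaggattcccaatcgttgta
mt-Nd5 and mt-Nd6: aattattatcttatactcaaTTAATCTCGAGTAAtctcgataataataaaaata

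Transcripts of the mitochondrial genome were less abundant in AL/NP livers on average, but the groups overlapped and the spread among controls was wide. The 13 genes took 16.7%, 14.1% and 11.9% of all counts in AL/NP replicates 1 to 3 and 16.1%, 19.7% and 26.6% in control replicates 1 to 3. AL/NP replicate 1 thus lay above control replicate 1, and control replicate 3 lay highest. Mean shares were 14.2% ± 2.41 (SD, n = 3) and 20.8% ± 5.31 (SD, n = 3), a difference of -6.60 percentage points that became -3.72 without control replicate 3. With the copies counted as mitochondrial, the shares were 22.2% ± 4.08 and 32.3% ± 8.19 (SD, n = 3 each).

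Nuclear members differed less. They held 1.03%, 0.998% and 0.982% of all counts in AL/NP livers and 0.959%, 0.920% and 0.771% in controls, so the groups did not overlap and AL/NP was higher. That denominator holds the mitochondrial counts themselves. Of the counts outside the mitochondrial genome and its copies, nuclear members took 1.41%, 1.28% and 1.21% in AL/NP livers and 1.28%, 1.33% and 1.31% in controls, with means of 1.30% ± 0.103 and 1.31% ± 0.0232 (SD, n = 3 each) and overlapping groups.

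**Figure D1:**
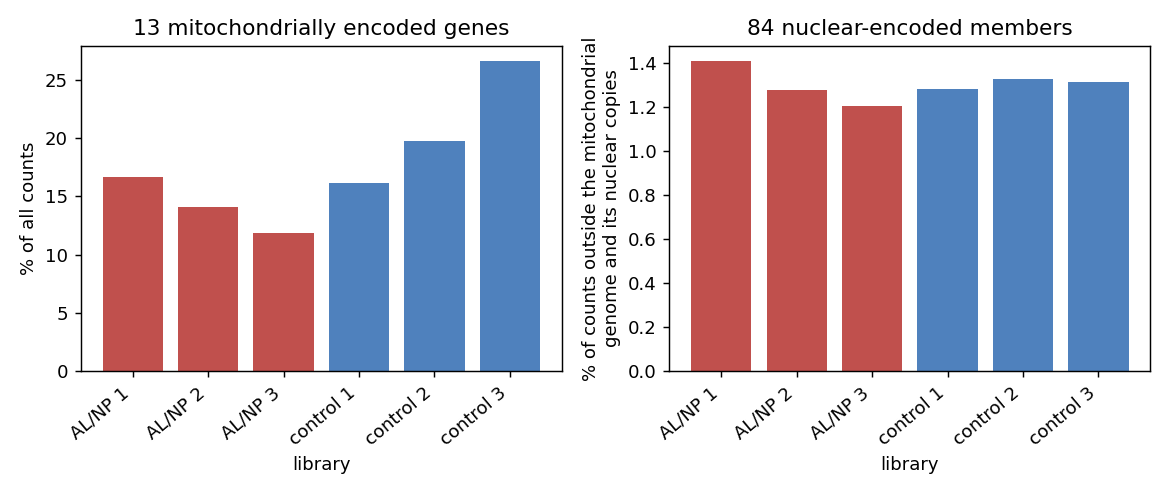
Share of counts per library, in percent, for the 13 mitochondrially encoded genes (left, of all counts) and the 84 nuclear-encoded members (right, of counts outside the mitochondrial genome and its copies); each bar is 1 library. The left bars run from 11.9% in AL/NP replicate 3 to 26.6% in control replicate 3, whereas the right bars all lie between 1.21% and 1.41%.

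The ratio of the 2 genomes did not overlap between the groups. Counts of the 13 mitochondrial genes were 16.2, 14.1 and 12.1 times those of the 84 nuclear genes in AL/NP replicates 1 to 3 and 16.8, 21.4 and 34.4 times in control replicates 1 to 3. Every AL/NP library lay below every control, although AL/NP replicate 1 and control replicate 1 were close. On the log2 scale the mean ratio was 3.81 ± 0.21 in AL/NP livers and 4.53 ± 0.53 in controls (SD, n = 3 each), a difference of -0.72 that became -0.44 without control replicate 3. With the copies added to the mitochondrial side, the difference was -0.71. No p-value is given for these sums, because their members were chosen with earlier results of the same data known.

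All 13 mitochondrial genes had a negative log2 fold change of AL/NP over control, from -1.01 to -0.29. The median of these 13 was -0.67, beside a median of 0.00 over all tested genes. None passed the threshold in edgeR's quasi-likelihood test or in limma-voom, and 4 had an unadjusted p under 0.05, all lower, where 10.3% of all tested genes did so. That count moved with single libraries, and brackets give all tested genes of the same fit at that level, in either direction. Dropping AL/NP replicate 1 raised the count to 10 (2229 of 16280), and dropping control replicate 1 raised it to 11 (2895 of 16294). Dropping AL/NP replicate 2 (2328 of 16181), AL/NP replicate 3 (2880 of 16251) or control replicate 3 (3022 of 16204) lowered it to 2. Dropping control replicate 2 gave 3 (2461 of 16242). With all 6 libraries the bracket would read 3128 of 15939. In 3 genes all AL/NP libraries lay below all controls, as in 15.0% of all tested genes, and DESeq2 called 2 lower, mt-Nd5 and mt-Atp8, beside 5.69% of all genes that it tested in either direction. The median was -0.36 without control replicate 3 and -0.90 without AL/NP replicate 1, with all 13 negative in both cases. The 13 genes come from shared precursors in the same libraries, so their common direction is no count of independent events. Control replicate 3 was the highest of the 6 libraries for 13 of 13 genes and AL/NP replicate 3 the lowest for 12.

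Complex I holds 7 mitochondrial subunits, which form part of its proton-pumping membrane arm. For mt-Nd5, AL/NP replicates 1 to 3 read 3612, 4126 and 3904 CPM and control replicates 1 to 3 read 5585, 7492 and 10302 CPM. All AL/NP libraries lay below all controls, and controls spread more widely than treated livers. The log2 fold change of mt-Nd5 was -1.01 (SE 0.26, edgeR adjusted p = 0.134), and -0.76 without control replicate 3. DESeq2 gave mt-Nd5 an adjusted p of 0.00222, past the threshold.

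The other subunit of complex I whose groups did not overlap was mt-Nd4l, at 1385, 1358 and 1137 CPM in AL/NP livers and 1430, 2032 and 3603 CPM in controls. AL/NP replicate 1 and control replicate 1 differed little for mt-Nd4l, and control replicate 3 was far above the rest. For mt-Nd4l the log2 fold change was -0.86 (SE 0.32, edgeR adjusted p = 0.204), and -0.42 without control replicate 3. The only mitochondrial member on the minus strand, mt-Nd6, read 182, 153 and 97.7 CPM against 168, 222 and 277 CPM, with overlapping groups. For mt-Nd6 the log2 fold change was -0.63 (SE 0.26), or -0.44 without control replicate 3. Values for mt-Nd1, mt-Nd2 and mt-Nd4 were -0.67, -0.63 and -0.67, each with overlapping groups, and became -0.39, -0.26 and -0.24 without control replicate 3.

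A smaller difference was found for mt-Nd3, at 1949, 1055 and 905 CPM in AL/NP livers and 1163, 1446 and 2173 CPM in controls. AL/NP replicate 1 lay above the first pair of controls for mt-Nd3, and the log2 fold change was -0.29 (SE 0.34), with -0.0037 without control replicate 3 and -0.70 without AL/NP replicate 1. Leaving out AL/NP replicate 2 or 3 gave -0.16 or -0.086 for mt-Nd3, and leaving out control replicate 1 gave -0.47. Within the counts of the 13 genes, mt-Nd3 took 1.09%, 0.819% and 0.861% in AL/NP livers and 0.769%, 0.736% and 0.661% in controls, a higher share in AL/NP with no overlap. The share of mt-Nd5 was 2.03%, 3.21% and 3.71% against 3.69%, 3.82% and 3.13%, with AL/NP replicate 1 well below the other 5 libraries.

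Complex III has a single mitochondrial subunit, cytochrome b, encoded by mt-Cytb, which read 18291, 14606 and 12090 CPM in AL/NP livers and 16733, 21689 and 36541 CPM in controls. AL/NP replicate 1 overlapped the control range for mt-Cytb, and the log2 fold change was -0.74 (SE 0.33) or -0.36 without control replicate 3. The catalytic core of complex IV is encoded by mt-Co1, mt-Co2 and mt-Co3. For mt-Co1, the most abundant member, AL/NP livers read 52511, 36846 and 29986 CPM and controls 45085, 56793 and 101851 CPM. The mt-Co1 groups overlapped, control replicate 3 was highest by a wide margin, and the log2 fold change was -0.77 (SE 0.38), or -0.36 without that library. For mt-Co2 and mt-Co3 it was -0.67 (SE 0.35) and -0.64 (SE 0.37), also with overlap, and -0.30 and -0.26 without control replicate 3. Leaving out AL/NP replicate 1 instead gave -0.98 for mt-Co3.

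Complex V has mt-Atp6, part of the proton channel, and mt-Atp8, a small peripheral subunit. Levels of mt-Atp8 were 3105, 2847 and 2502 CPM in AL/NP livers and 4045, 4808 and 7504 CPM in controls. The mt-Atp8 groups were separated by a gap wider than the whole AL/NP range. Its log2 fold change was -0.95 (SE 0.27, edgeR adjusted p = 0.144), -0.65 without control replicate 3, and DESeq2 gave an adjusted p of 0.00795. The neighbouring mt-Atp6, with which it shares the 43 bases shown above, was at -0.65 (SE 0.34) with overlapping groups, or -0.32 without control replicate 3.

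**Figure D2:**
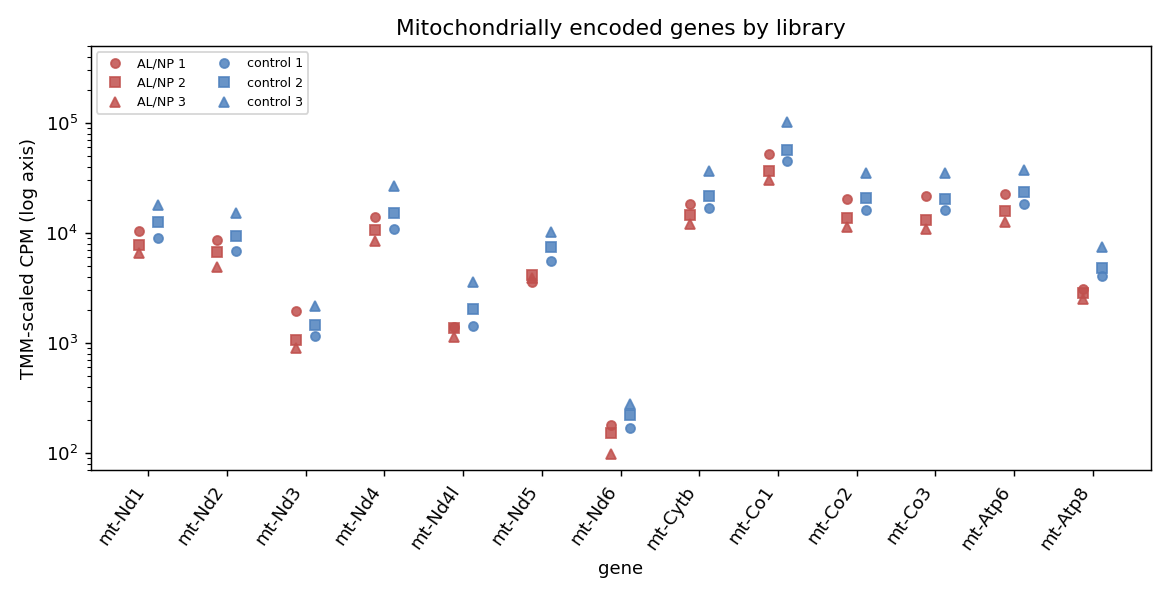
TMM-scaled CPM on a log axis for each of the 13 mitochondrially encoded genes; each point is 1 library, red for AL/NP and blue for control, with circle, square and triangle for replicates 1, 2 and 3. Control replicate 3 is the highest point for all 13 genes, and the groups are apart for mt-Nd5, mt-Nd4l and mt-Atp8.

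Per kilobase of exon, mitochondrial messengers other than mt-Nd6 stood far above nuclear ones, and they differed widely among themselves. Control livers held 43954 ± 19399 CPM per kilobase of mt-Co1, 38761 ± 14261 of mt-Atp6, 26727 ± 8909 of mt-Atp8, 4272 ± 1301 of mt-Nd5 and 428 ± 106 of mt-Nd6 (SD, n = 3 each). Among nuclear members Cox6b1, at 274 ± 35.4 CPM per kilobase, had the highest level of all 84 in controls; it was picked after its level was seen. In AL/NP livers mt-Nd6, at 277.5 ± 82.2 CPM per kilobase, lay within its SD of the highest nuclear level, 286 ± 39.4 for Cox6a1 (SD, n = 3 each), which was likewise picked by its level. Levels of mt-Co1 and mt-Atp6 differed by less than their SDs. Exon lengths are those of all annotated exons of a gene together, which lowers the per-length level of genes with long unused exons. Polyadenylated RNA was selected, and how well each messenger was captured was not measured. The strand setting is not given, which also limits the level of mt-Nd6, the only mitochondrial member on the minus strand.

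Nuclear members took values of both signs. Their log2 fold changes ran from -1.09 to 0.80 with a median of -0.06; 34 were positive and 47 negative. No nuclear member passed the threshold in edgeR's quasi-likelihood test or in limma-voom (smallest edgeR adjusted p = 0.144). DESeq2 called Cox7a2l higher and Cox6b2 lower, where it called 5.69% of all genes that it tested. At an unadjusted p under 0.05 there were 4 higher and 8 lower of 81, beside 9.37% and 10.3% of all tested genes. Without AL/NP replicate 1, 2 or 3 the 12 became 7, 8 and 6, beside 2229 of 16280, 2328 of 16181 and 2880 of 16251 genes. Without control replicate 1, 2 or 3 they were 15, 13 and 12, beside 2895 of 16294, 2461 of 16242 and 3022 of 16204 genes. With no library left out, 3128 of 15939 genes were at that level. The groups did not overlap in 15 members that were higher and 14 that were lower, beside 14.5% and 15.0% of all tested genes, so both counts lay near the background. Without control replicate 3 the nuclear median was 0.00, with 40 positive and 41 negative, and without AL/NP replicate 1 it was -0.16, with 24 positive and 57 negative. With library totals in place of TMM scaling, the median over all genes shifted to 0.13, the nuclear median to 0.08 and the mitochondrial median to -0.51.

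Levels of the nuclear members followed single libraries. Relative to the control mean, the mean log2 level of the 81 genes was 0.17, -0.06 and -0.15 in AL/NP replicates 1 to 3 and -0.04, -0.02 and 0.06 in control replicates 1 to 3, with overlapping groups. For the 13 mitochondrial genes it was -0.32, -0.70 and -0.99 against -0.48, -0.09 and 0.57, also with overlap. AL/NP replicate 1 was the highest library for 36 of 81 nuclear members (44.4%, beside 24.4% of all tested genes), and AL/NP replicate 3 the lowest for 45 (55.6%, beside 14.0%). Control replicate 3 was highest for 34 and lowest for 22.

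**Figure D3:**
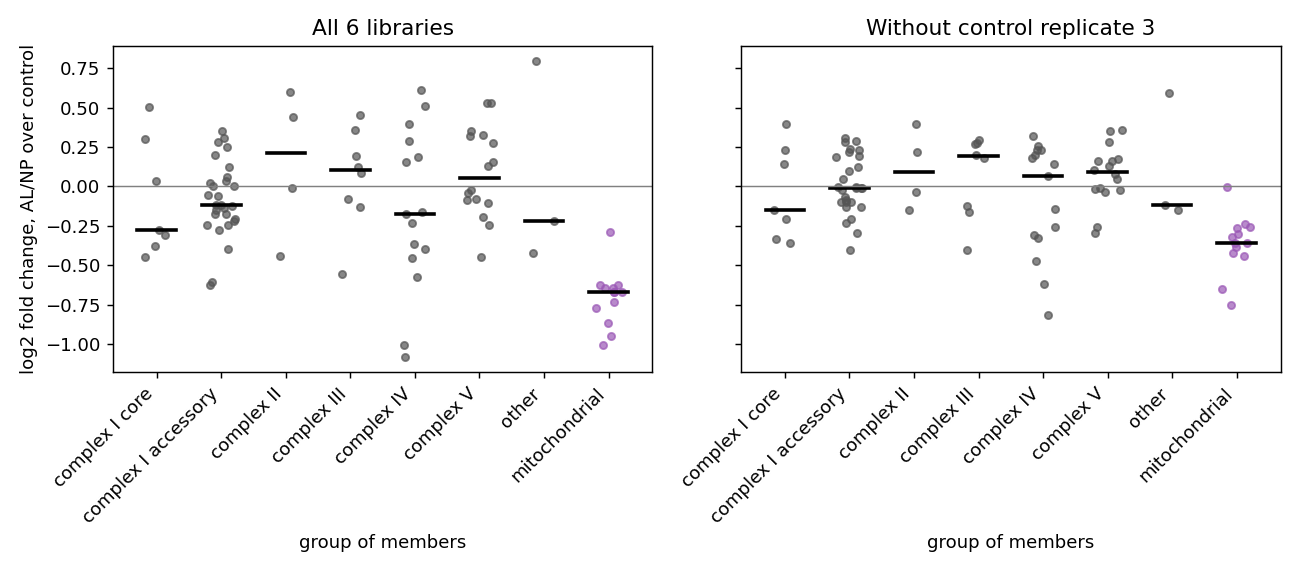
Log2 fold change of AL/NP over control for every tested member by group, with all 6 libraries (left) and without control replicate 3 (right); each point is 1 gene and the bar is the median of its group. Mitochondrial genes have a median of -0.67 on the left and -0.36 on the right, while the nuclear groups lie around 0.

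The nuclear core of complex I, which carries flavin and iron-sulphur clusters, held members of opposite sign. Ndufv1, the NADH-binding subunit, read 121, 94.4 and 98.5 CPM in AL/NP livers and 76.4, 82.4 and 63.1 CPM in controls, all AL/NP libraries above all controls. Ndufv2, its partner in the NADH-oxidising module, read 86.1, 93.2 and 87.6 CPM against 114, 115 and 136 CPM, all AL/NP libraries below all controls. Their log2 fold changes were 0.50 (SE 0.17, edgeR adjusted p = 0.185) and -0.45 (SE 0.15, edgeR adjusted p = 0.176). Neither passed the threshold, and without control replicate 3 they were 0.40 and -0.36. Ndufs3, a core subunit of the arm that leads electrons to ubiquinone, was at -0.31 (SE 0.15) with AL/NP libraries below controls, but its pseudogene Gm12251 held 48.2 counts per 100 counts of Ndufs3, and its value without control replicate 3 was -0.20. The 7 core subunits had a median of -0.28, or -0.15 without control replicate 3.

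The 28 accessory subunits of complex I, which stabilise and regulate it, had a median of -0.12, with 9 positive and 19 negative. With library totals the median was 0.02. At an unadjusted p under 0.05, 2 of them were lower and none was higher, beside 10.3% and 9.37% of all tested genes. For Ndufb4, AL/NP livers read 57.1, 57.1 and 50.9 CPM and controls 74.0, 71.1 and 106 CPM. No control of Ndufb4 reached down to the AL/NP range, and the log2 fold change was -0.61 (SE 0.18, edgeR adjusted p = 0.158), or -0.40 without control replicate 3. The identical copy Ndufb4c held 81.7 counts per 100 counts of Ndufb4. Ndufa10 was at -0.40 (SE 0.15), without overlap, and Ndufa5 at -0.62 (SE 0.28), with control replicate 3 at 110 CPM and the other 5 libraries between 39.6 and 58.6 CPM. Without that library Ndufa5 was at -0.23 and Ndufa10 at -0.295. Ndufs6, which has a zinc site, had the highest accessory value, 0.35 (SE 0.22), with overlapping groups, and was at 0.09 without AL/NP replicate 1. Without control replicate 3 the accessory median was -0.01.

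Complex II oxidises succinate and also serves the citric acid cycle. Sdha, its flavoprotein, read 146, 113 and 132 CPM in AL/NP livers and 105, 92.3 and 60.0 CPM in controls. All AL/NP libraries lay above all controls, and control replicate 3 was lowest. The log2 fold change of Sdha was 0.60 (SE 0.22, edgeR adjusted p = 0.203), or 0.40 without control replicate 3. Sdhb, the iron-sulphur subunit, went the other way, at 91.6, 86.4 and 85.5 CPM against 102, 92.5 and 162 CPM, with a narrow gap between the groups and control replicate 3 highest. The log2 fold change of Sdhb was -0.44 (SE 0.22, edgeR adjusted p = 0.293), or -0.15 without control replicate 3.

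The membrane anchors of complex II are Sdhc and Sdhd. Sdhd read 98.5, 91.7 and 114 CPM in AL/NP livers and 89.6, 83.9 and 50.6 CPM in controls, without overlap, and its log2 fold change was 0.44 (SE 0.22, edgeR adjusted p = 0.299), or 0.22 without control replicate 3. Sdhc lay between 80.9 and 94.9 CPM in every library, with a log2 fold change of -0.01 (SE 0.14). Control replicate 3 was the lowest library for Sdha and Sdhd and the highest for Sdhb.

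Promoters of Sdha and Sdhb are shown as examples from 1 enzyme. A link between their motifs and the signs of their log2 fold changes was not tested. The windows reach from 250 bases before to 50 bases after the RefSeq start in GRCm38.p6 and are printed in the direction of transcription, Sdha at chr13:74350191-74350490 on the minus strand and Sdhb at chr4:140961021-140961320 on the plus strand. Capitals mark matches to the motif of NRF1 (GCGCANGCG) or to the ETS motif bound by GABPA (CCGGAAG), both known regulators of respiratory genes, searched on both strands. Sdha has 3 NRF1 matches and Sdhb has 1 ETS match. The window of Sdhd, positive like Sdha and not shown, has 1 match to each motif.
Sdha: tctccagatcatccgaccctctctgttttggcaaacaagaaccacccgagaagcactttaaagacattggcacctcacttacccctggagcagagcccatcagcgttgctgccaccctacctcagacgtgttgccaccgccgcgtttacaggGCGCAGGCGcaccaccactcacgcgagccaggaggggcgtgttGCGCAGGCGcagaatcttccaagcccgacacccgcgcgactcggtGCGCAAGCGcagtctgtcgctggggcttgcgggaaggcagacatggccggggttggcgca
Sdhb: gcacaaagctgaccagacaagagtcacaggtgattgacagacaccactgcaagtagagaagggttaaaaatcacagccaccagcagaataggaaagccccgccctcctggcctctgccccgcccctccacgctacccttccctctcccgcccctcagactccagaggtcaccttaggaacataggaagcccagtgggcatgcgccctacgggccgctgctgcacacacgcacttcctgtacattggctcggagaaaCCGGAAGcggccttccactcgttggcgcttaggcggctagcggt

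Of the 84 nuclear members, 68 had a window in the RefSeq table, 73 windows in all. The NRF1 motif stood in 28.8% of these windows and in 6.25% of the 32851 windows of that length in the table. For the ETS motif the shares were 21.9% and 8.86%, and for the YY1 motif (AAGATGGCG) they were 9.59% and 1.40%. A match is a run of letters and was not tested as a binding site.

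Complex III, in which 8 nuclear members were measured, had a median log2 fold change of 0.11. Uqcrb, a small subunit of the complex, read 119, 119 and 114 CPM in AL/NP livers and 151, 158 and 208 CPM in controls. The AL/NP libraries of Uqcrb lay close together and below every control. For Uqcrb the log2 fold change was -0.56 (SE 0.17, edgeR adjusted p = 0.156), or -0.40 without control replicate 3. Its pseudogene Gm16089 held 14.3 counts per 100 counts of Uqcrb, and all its copies together held 25.3. Uqcrh, the hinge protein that assists electron transfer to cytochrome c, was at 216, 153 and 148 CPM against 138, 145 and 94.0 CPM. The groups did not overlap, by a margin of a few CPM, and the log2 fold change was 0.45 (SE 0.22, edgeR adjusted p = 0.290). It was 0.28 without control replicate 3 and 0.26 without AL/NP replicate 1. Uqcrh overlaps the pseudogene Gm12854 on the other strand over 297 bases, which held 25.8 counts per 100 counts of Uqcrh. Uqcr10 was at 0.35 (SE 0.22) with overlap, or 0.09 without AL/NP replicate 1.

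Complex IV had 15 tested nuclear members and a median of -0.18, which was 0.07 without control replicate 3. Cox7b and Cox7c, small subunits of the membrane part, read 143 to 152 and 144 to 179 CPM in AL/NP livers and 182 to 214 and 197 to 266 CPM in controls. Both were lower without overlap, at -0.40 (SE 0.14, edgeR adjusted p = 0.200) and -0.46 (SE 0.18, edgeR adjusted p = 0.216), but near-identical copies of Cox7c together held 67.9 counts per 100 counts of Cox7c. Without control replicate 3 they were at -0.33 and -0.31. Cox5a, a subunit on the matrix side, read 123, 80.6 and 89.5 CPM against 78.7, 77.5 and 35.6 CPM. Control replicate 3 was far the lowest library for Cox5a, and the other controls lay just below AL/NP replicate 2. The estimate for Cox5a was 0.61 on the log2 scale (SE 0.30, edgeR adjusted p = 0.292), or 0.32 without control replicate 3.

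Among the 3 other proteins, Cox7a2l, which helps to join complexes III and IV into supercomplexes, had the highest log2 fold change of all nuclear members. Its AL/NP libraries read 102, 70.1 and 69.8 CPM and its controls 54.6, 52.2 and 32.2 CPM. Every AL/NP library was above every control, with AL/NP replicate 1 highest and control replicate 3 lowest. The log2 fold change was 0.80 (SE 0.24, edgeR adjusted p = 0.156), 0.59 without control replicate 3, and DESeq2 gave an adjusted p of 0.0487. Atp5s, a coupling factor, and Ndufa4l2, a paralogue of Ndufa4 induced by hypoxia, were at -0.22 (SE 0.18) and -0.42 (SE 0.36) with overlap, and at -0.12 and -0.15 without control replicate 3. Counts of Ndufa4l2 were few, and the gene overlaps the more abundant Shmt2 on the other strand.

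Complex V had 16 nuclear members, a median of 0.05 and as many positive as negative values, 8 each. Atp5b, the catalytic beta subunit, read 631, 513 and 582 CPM in AL/NP livers and 444, 453 and 300.2 CPM in controls. No AL/NP library of Atp5b fell into the control range, and the log2 fold change was 0.53 (SE 0.20, edgeR adjusted p = 0.212), or 0.36 without control replicate 3. Atp5j, coupling factor 6 in the stalk, was at 132, 130 and 120 CPM against 151, 152 and 218 CPM. It was lower without overlap, at -0.45 (SE 0.18, edgeR adjusted p = 0.230), or -0.26 without control replicate 3, and overlaps Gabpa on the other strand over 701 bases. Atp5g3, which encodes the ring subunit c, was at 0.53 (SE 0.26, edgeR adjusted p = 0.286), without overlap, and at 0.28 without control replicate 3.

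**Figure D4:**
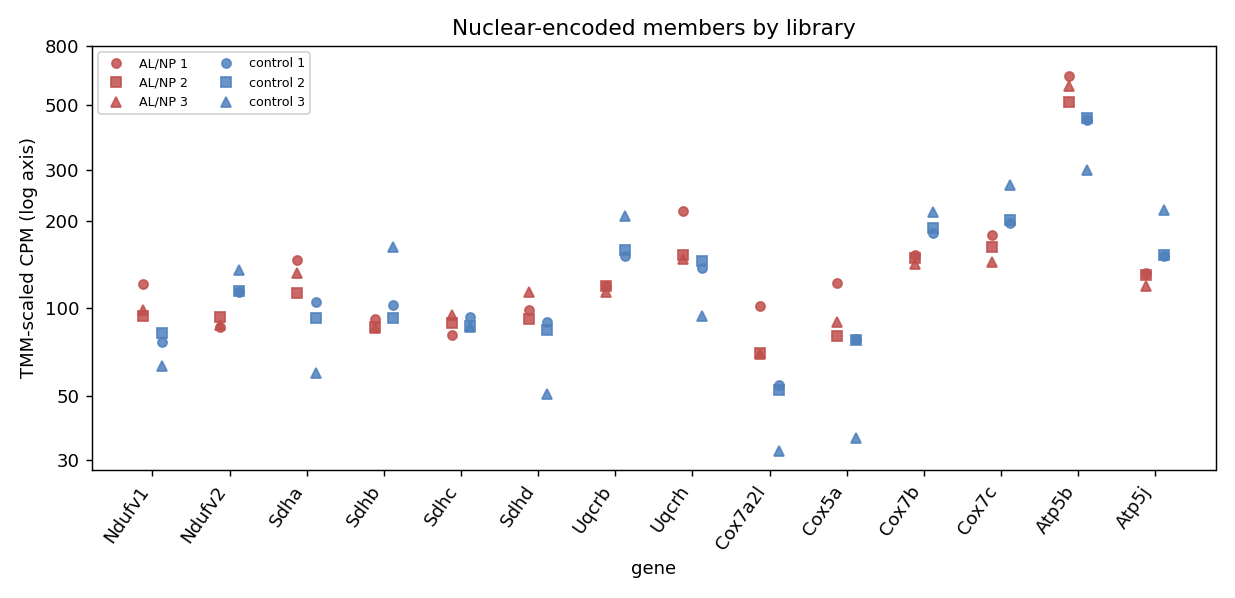
TMM-scaled CPM on a log axis for 14 nuclear-encoded members; each point is 1 library, red for AL/NP and blue for control, with circle, square and triangle for replicates 1, 2 and 3. Control replicate 3 is the lowest point for Ndufv1, Sdha, Sdhd, Uqcrh, Cox7a2l, Cox5a and Atp5b and the highest for Ndufv2, Sdhb, Uqcrb, Cox7b, Cox7c and Atp5j.

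Isoforms of complex IV that are known from muscle, testis or lung were low, and of these Cox7b2, Cox8b and Cox8c were near the limit of detection. Cox6b2, the testis isoform, read 3.09, 4.18 and 3.02 CPM in AL/NP livers and 7.41, 4.70 and 8.60 CPM in controls, lower without overlap. Its log2 fold change was -1.01 (SE 0.27, edgeR adjusted p = 0.144), -0.82 without control replicate 3, and DESeq2 called it lower with an adjusted p of 0.0231. Cox6a2 and Cox7a1, the heart and muscle isoforms, had group means between 0.263 and 1.12 CPM and log2 fold changes of -1.09 (SE 0.53) and -0.16 (SE 0.33). Without control replicate 3 they were -0.48 and 0.14, and Cox7a1 was also slightly positive with library totals, at 0.0078. Cox6a2 overlaps Itgad on the other strand over 953 bases, and Itgad held 37.3 counts per 100 counts of Cox6a2. Cox4i2, the lung isoform, was at -0.58 (SE 0.36). Cox8b had 1 to 3 counts per library, Cox7b2 had 1 count in a single library, and Cox8c had none, which allows up to 0.0753 to 0.0982 CPM before scaling (3 counts per library, counting error only).

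Many nuclear members have processed pseudogenes of near-identical sequence. Of the 84, 23 had at least 1 annotated copy at 95% identity, 40 copies in all, and 17 copies of 13 members held at least 10 counts per 100 counts of the member. Gm15920 held 122 per 100 of Ndufa12, Gm10221 held 31282 counts beside 31287 of Atp5l, and Gm10175 and Gm10231 held 87.8 and 82.0 per 100 of Atp5g2. Counts of these members are uncertain to that extent. Of the nuclear members described above, Sdha, Sdhb, Ndufv1, Ndufv2 and Atp5b had no counted copy.

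**Figure D5:**
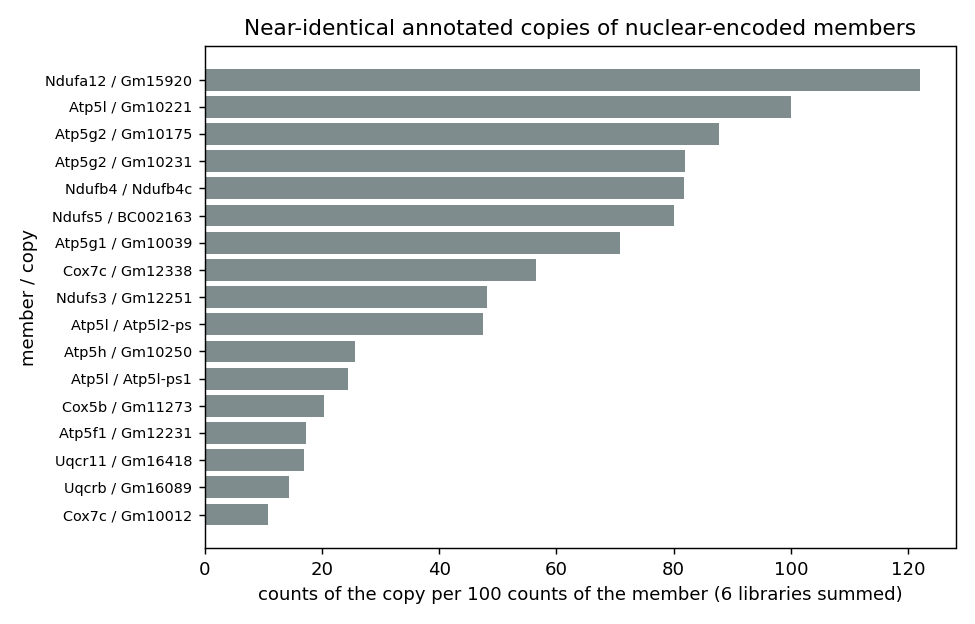
Counts of each annotated near-identical copy per 100 counts of its member, summed over the 6 libraries, for the 17 copies at 10 or more; each bar is 1 pair of member and copy. The bars run from 10.8 for Cox7c and Gm10012 to 122 for Ndufa12 and Gm15920.

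Genes that build, feed or regulate the complexes were counted from lists of textbook members. Of 255 tested genes none passed the threshold in edgeR's quasi-likelihood test or in limma-voom, 35 had an unadjusted p under 0.05 in edgeR (13.7%, beside 19.6% of all tested genes), and DESeq2 called 5 (1.97%, beside 5.69%), namely Clpx, Coq8a, Cox20, Mterf2 and Primpol. The 35 became 17, 23 and 22 without AL/NP replicate 1, 2 or 3, beside 2229 of 16280, 2328 of 16181 and 2880 of 16251 genes over all genes. Without control replicate 1, 2 or 3 they became 34, 24 and 30, beside 2895 of 16294, 2461 of 16242 and 3022 of 16204 genes. The 16 tested assembly factors of complex I had a median of -0.13 with no gene at an unadjusted p under 0.05 (0.01 with library totals), and the 10 of complexes II and III and 5 of complex V also had none. Among 20 assembly factors of complex IV, 1 was higher and 4 lower at that level, beside 9.37% and 10.3% of all tested genes. Cox20, a chaperone of the subunit that mt-Co2 encodes, read 22.2, 28.5 and 25.7 CPM in AL/NP livers and 36.6, 37.0 and 67.2 CPM in controls, lower without overlap. Cox20 had a log2 fold change of -0.88 (SE 0.25, edgeR adjusted p = 0.145), or -0.53 without control replicate 3.

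Mobile carriers and enzymes of ubiquinone synthesis, 21 genes, had a median of 0.04. At an unadjusted p under 0.05, 2 were higher and 2 lower, beside 9.37% and 10.3% of all tested genes. Coq8a, a kinase-like protein of ubiquinone synthesis, read 24.2, 22.4 and 22.7 CPM against 31.0, 31.9 and 98.7 CPM. Its log2 fold change was -1.22 (SE 0.43, edgeR adjusted p = 0.198) and -0.45 without control replicate 3, so that library held most of the difference. Etfdh, which passes electrons from fatty acid oxidation to ubiquinone, was at 0.61 (SE 0.24, edgeR adjusted p = 0.217), or 0.38 without control replicate 3. The 19 genes of the citric acid cycle had a median of 0.03 and none at an unadjusted p under 0.05.

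Genes that copy and transcribe mitochondrial DNA had a median of -0.16 over 21 genes, which was -0.03 without control replicate 3 and 0.00 with library totals. At an unadjusted p under 0.05, none was higher and 4 were lower, beside 9.37% and 10.3% of all tested genes. Primpol, a primase-polymerase, read 5.80, 9.83 and 8.85 CPM in AL/NP livers and 14.1, 13.4 and 21.8 CPM in controls. Mterf2, which binds mitochondrial DNA, was low, at 1.36, 1.35 and 1.54 CPM against 2.10, 2.87 and 3.88 CPM. Both were lower without overlap, at -1.01 (SE 0.26, edgeR adjusted p = 0.132) and -1.06 (SE 0.29, edgeR adjusted p = 0.144). Without control replicate 3 they were at -0.75 and -0.81. Ssbp1, the single-strand binding protein, was at -0.38 (SE 0.15), or -0.31 without control replicate 3. Tfam, which packages the genome and starts transcription, was at -0.22 (SE 0.18) with overlap, or -0.38 without control replicate 3.

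Processing and stability factors of mitochondrial RNA had a median of -0.12 over 21 genes. At an unadjusted p under 0.05, 2 were higher and 5 lower, beside 9.37% and 10.3% of all tested genes. Fastkd1 and Ptcd3, RNA-binding proteins, were at -0.56 (SE 0.17) and -0.40 (SE 0.13), and Elac2, which cuts tRNA 3′ ends out of precursors, was at 0.43 (SE 0.15), all without overlap. Without control replicate 3, Fastkd1, Ptcd3 and Elac2 were at -0.39, -0.33 and 0.40. With library totals the median of this list was 0.00. Mitoribosomal proteins, 76 tested of 77, had a median of 0.05, with 7 higher and 5 lower at an unadjusted p under 0.05, beside the same 9.37% and 10.3%.

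Regulators of mitochondrial biogenesis had a median of -0.15 over 15 tested genes. At an unadjusted p under 0.05, 1 was lower, where 10.3% of all tested genes were lower and 9.37% higher. Ppara, a receptor that drives fatty acid oxidation genes, read 7.47, 8.12 and 7.31 CPM in AL/NP livers and 14.8, 14.6 and 9.01 CPM in controls. It was lower without overlap, at -0.75 (SE 0.21, edgeR adjusted p = 0.147), or -0.95 without control replicate 3. The coactivator Ppargc1a was at -0.66 (SE 0.30, edgeR adjusted p = 0.268), Esrra at -0.27 (SE 0.18) and Nrf1 at 0.39 (SE 0.20), each with overlapping groups. Without control replicate 3, Ppargc1a was at -0.49, Esrra at -0.08 and Nrf1 at 0.36. Nrf1 was at 0.23 without AL/NP replicate 1. Of 16 proteostasis genes 1, the chaperone-protease subunit Clpx, was higher at that level, at 67.7, 56.1 and 65.7 CPM against 39.1, 45.3 and 39.6 CPM. Clpx was at 0.61 (SE 0.15, edgeR adjusted p = 0.124), with little difference without control replicate 3, at 0.58. Import and transport genes, 15 tested of 20, had a median of 0.10 with 1 higher at an unadjusted p under 0.05, the receptor Tomm20, at 0.56 (SE 0.23), or 0.33 without AL/NP replicate 1. Without control replicate 3 the medians of the import and citric acid cycle lists were 0.01 and -0.06.

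Cell-type markers also differed between the groups, though none of 68 tested passed the threshold in edgeR or limma-voom; 24 had an unadjusted p under 0.05 in edgeR (35.3%, beside 19.6% of all tested genes) and DESeq2 called 12 (17.6%, beside 5.69%). Of 15 macrophage markers 14 were positive (median 1.07), and their summed level was 515 to 896 CPM in AL/NP livers against 262 to 426 CPM in controls, without overlap. All 7 tested of 10 neutrophil markers were positive, at summed levels of 485 to 961 against 214 to 293 CPM. Most of that sum was Lcn2, which injured hepatocytes also express, at 449.7 to 885 against 179.7 to 272 CPM; the other neutrophil markers summed to 35.0 to 76.4 against 18.9 to 34.0 CPM. Hepatocyte markers were positive in 5 of 15 (median -0.32, or -0.10 without control replicate 3). Their summed levels, given above, did not overlap between the groups. Most of each sum was Alb, at 36800 to 43300 against 44100 to 53600 CPM. The other hepatocyte markers summed to 17800 to 22500 against 20900 to 29400 CPM, with overlap. Stellate cell and fibroblast markers summed to 375 to 793 against 410 to 950 CPM, endothelial markers to 245 to 299 against 234 to 290 CPM and cholangiocyte markers to 453 to 875 against 429 to 603 CPM, all overlapping. Muscle markers summed to 1.04 CPM or less in every library, with Mb at 0, and brown fat markers to 17.2 to 23.2 against 12.8 to 16.0 CPM, without overlap. Nearly all of the latter was Fabp4, at 16.7 to 22.5 against 12.3 to 15.3 CPM, while Ucp1 had 3 counts in control replicate 3 and 0 in the other libraries. Bulk tissue cannot tell fewer hepatocytes from less RNA per cell, and the part of cell composition in the mitochondrial difference was not tested.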

How the data were processed

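RNA sequencing of 6 liver libraries was analysed, 3 AL/NP and 3 control, numbered as in the labels. The authors deposited a table of raw counts, whole numbers for each Ensembl identifier. Per the submitters' processing notes they used GRCm38, STAR 2.6.1a, featureCounts and DESeq2 1.26.0; the annotation, the strand setting and the treatment of reads with several matches are not given in the sources used here. Library totals ranged from 30554483 to 39838428 counts, where 3 counts equal 0.0753 to 0.0982 CPM; such limits cover counting error only. Symbols were found for 40254 of 41388 identifiers, and coordinates and transcripts come from GENCODE M21.

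All genes entered 1 fit in edgeR 4.0.16 (R 4.3.3), a robust quasi-likelihood test after TMM scaling and filterByExpr at its minimum count of 10. Benjamini-Hochberg adjustment covered all 15939 genes, and 0.05 was the threshold. A positive log2 fold change means a higher level in AL/NP; its SE was derived from the F statistic. The fit was tested on simulated data, where it missed many 2-fold changes. Copies were found with blastn 2.17.0 at 95% identity, matching no fewer than 100 bases and 50% of the copy's transcript. Promoters come from RefSeq. An exact permutation test of 3 against 3 cannot go below 0.10; that of the mitochondrial share had been planned, and no p is given for a sum over members.

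The rule named all mitochondrial genes; in each nuclear group the 3 smallest p-values and the largest rise and fall at a mean of at least 1 CPM; all of complex II; the tissue isoforms; the 3 smallest p-values of each pathway list; and Ppargc1a, Tfam, Nrf1 and Esrra. Not every named gene is described. Members, lists and tests were chosen with earlier results of these data known. Alternatives were DESeq2 1.42.0, limma-voom (limma 3.58.1), other scalings and filters, the 10 most abundant genes left out, the fit without robust estimation, a replicate block and each library left out in turn.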

Additional observations from a re-analysis of the deposited data

How the results depend on the processing

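The call count over all genes depended on the setting: edgeR's quasi-likelihood test called 13, but 0 with library totals only (2254 at an unadjusted p under 0.05), 0 with at least 50 counts in 3 libraries (2786), 0 without robust estimation (3133), 747 with no filter beyond 1 count, 23 with the replicate block, and 0 to 4 with each library left out in turn; DESeq2 called 883. Nuclear members called were 0, but 2 with no filter and 2 with DESeq2 (Cox7a2l and Cox6b2 in both), and mitochondrial members called were 0, but 2 with no filter and 2 with DESeq2 (mt-Nd5 and mt-Atp8 in both). At an unadjusted p under 0.05 there were 4 mitochondrial and 12 nuclear members, beside 3128 of 15939 genes. There were 12 and 19 with no filter (4019 of 29551 genes) and 11 and 14 with DESeq2 (3342 of 29544 genes). There were 2 and 11 with the replicate block (3129 of 15939 genes), and 6 and 8 with library totals (2254 of 15939 genes). The replicate block called 0 members of either genome; same-numbered libraries had correlations of -0.0548, 0.0427 and 0.0752, so the numbers were not taken to pair samples. With library totals only, the nuclear median was 0.077, Cox7a1 was at 0.0078 and Sdhc at 0.13. With each library left out in turn, Cox7a1 ranged from -0.32 to 0.14, Sdhc from -0.068 to 0.048, the mitochondrial median from -0.90 (without AL/NP replicate 1) to -0.36 (without control replicate 3), and the nuclear median from -0.16 to -0.0016. Of 1239 pairs of a named gene and an alternative, 1217 kept direction and side of the threshold, 5 reversed (Cox7a1 and Sdhc), and 17 passed the threshold. No named gene passed the threshold in the main fit, so keeping its side asks little. Size was not part of that count. Of all tested members, 33 nuclear and 10 mitochondrial ones became smaller by over 1.5 times without control replicate 3. With the 10 most abundant genes left out, 8 mitochondrial members remained in the test. Leaving the copies out of the library total does not alter the ratio of the genomes.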
